A study of Mus musculus with 6 samples.

Results

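This account describes 10 genes that restrain signalling through the mitogen-activated protein (MAP) kinases, in NMuMG cells treated with TGF-β and with the calcium entry modulator 2APB. The genes were chosen by name, with earlier results of these data known. They are the MAP kinase phosphatases Dusp1, Dusp4, Dusp5, Dusp6 and Dusp10, the Sproutys Spry1, Spry2 and Spry4, and the Spreds Spred1 and Spred2. All 10 were found among the 18512 rows of the count table, and all 10 passed the filter on low counts that left 13353 genes for testing. NMuMG is an epithelial cell line from mouse mammary gland. The groups were DMSO (the vehicle), TGF-β at 5 ng/ml, and TGF-β at 5 ng/ml together with 2APB at 50 uM, each with 2 biological replicates as given in the study's methods, so that 6 libraries were compared. The study's text gives 24 h of treatment for the sequenced cells, while its methods describe 2APB as given for 24 h before TGF-β, and cells were starved of serum for 4 h beforehand. No group received 2APB alone, so each effect of 2APB is an effect in the presence of TGF-β.

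MAP kinase pathways carry signals from growth factor receptors and stress sensors to the nucleus. In the ERK branch a receptor tyrosine kinase activates Ras, Ras activates Raf, Raf activates MEK, and MEK activates ERK by phosphorylation. The dual-specificity phosphatases (DUSPs) take the phosphates off the MAP kinases again, while the Sprouty and Spred proteins act further up, between the receptor and Raf. Many of these inhibitors are themselves transcribed in response to ERK activity, which makes them negative feedback regulators. DUSP6 is cytoplasmic and acts on ERK, DUSP5 is nuclear and acts on ERK, DUSP1 and DUSP4 are nuclear with broader targets, and DUSP10 acts mainly on the stress kinases JNK and p38. TGF-β signals mainly through SMAD proteins and drives an epithelial-mesenchymal transition (EMT) in NMuMG cells.

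The deposited values summed to between 71840570 and 79473182 per library, and every deposited value was an even number. These sums exceed the average number of reads per sample given in the study's methods. The values are therefore not plain numbers of reads, and the reason was not tested. Values below are normalized counts, scaled by TMM factors to the mean library, unless stated otherwise. A gene was called when the Benjamini-Hochberg FDR of edgeR's quasi-likelihood test over all 13353 genes was 0.05 or less. The value after ± beside a log2 fold change is its standard error (SE), and the combination means TGF-β+2APB. The labelled line was checked against markers. All 6 epithelial markers examined (Cdh1, Epcam, Krt7, Krt8, Krt18, Krt19) and all 6 mesenchymal markers (Vim, Fn1, Cdh2, Acta2, Snai1, Zeb1) had counts in each library. The summed normalized count of the epithelial list was 531541 to 566181 in DMSO, 706185 to 828895 with TGF-β and 1314060 to 1382350 with TGF-β+2APB, and most of it was Krt8 and Krt18. The list did not move one way: with TGF-β 2 of its genes were called higher (Krt8 and Krt18) and 3 lower, and for the combination against DMSO 3 higher (Krt7, Krt8 and Krt18) and 3 lower. The genes called lower in both were the adhesion genes Cdh1 (-0.78 and -1.26 in log2) and Epcam (-1.42 and -0.97) and the keratin gene Krt19 (-2.04 and -4.09). The mesenchymal markers were all called higher with TGF-β. Of 4 endothelial markers none passed the count filter, and their summed normalized count ran from 9.83 to 49.3 over the libraries. Of 4 leukocyte markers (Ptprc, Cd68, Cd3e, Lyz2), 3 passed the filter, and the summed normalized count of the list was 311 in replicate 1 of TGF-β+2APB and 30031 in replicate 2, against 390.1 to 4069 in the other libraries. Most of that sum was Lyz2, with deposited counts of 158 and 29060 in those 2 replicates, while Cd3e was at 2 counts in replicate 2. The part of these epithelial and leukocyte marker levels in the results below was not tested, and a result is also given without a library where leaving it out changes the call.

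The 10 genes moved in different directions. With TGF-β alone, 5 were called higher (Dusp1, Dusp4, Dusp5, Dusp10 and Spred2), 1 was called lower (Spry4) and 4 were not called (Dusp6, Spry1, Spry2 and Spred1). When 2APB was added to TGF-β, 4 were called lower (Dusp6, Spry1, Spry2 and Spry4), 1 was called higher (Dusp4) and 5 were not called. Against DMSO, all 10 were called with TGF-β+2APB, the 5 that were higher with TGF-β remaining higher and Dusp6, the 3 Sproutys and Spred1 being lower. Over all tested genes, 41.5% were called with TGF-β against DMSO (21.8% higher and 19.7% lower), 17.5% on addition of 2APB (6.58% higher and 10.9% lower) and 52.8% with the combination against DMSO (25.6% higher and 27.2% lower). The libraries of the groups did not overlap for 8 of the 10 genes in the first comparison, 8 of 10 in the second and 10 of 10 in the third, beside 72.5%, 58% and 86% of all tested genes. The median log2 fold change of the 10 genes was 0.47, -0.34 and 0.16 in that order, beside -0.01, -0.0037 and -0.0033 over all tested genes. Each pair of comparisons shares the libraries of a group. In sequencing of whole cultures, fewer cells that express a gene and less RNA per cell cannot be told apart.

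**Figure D1:**
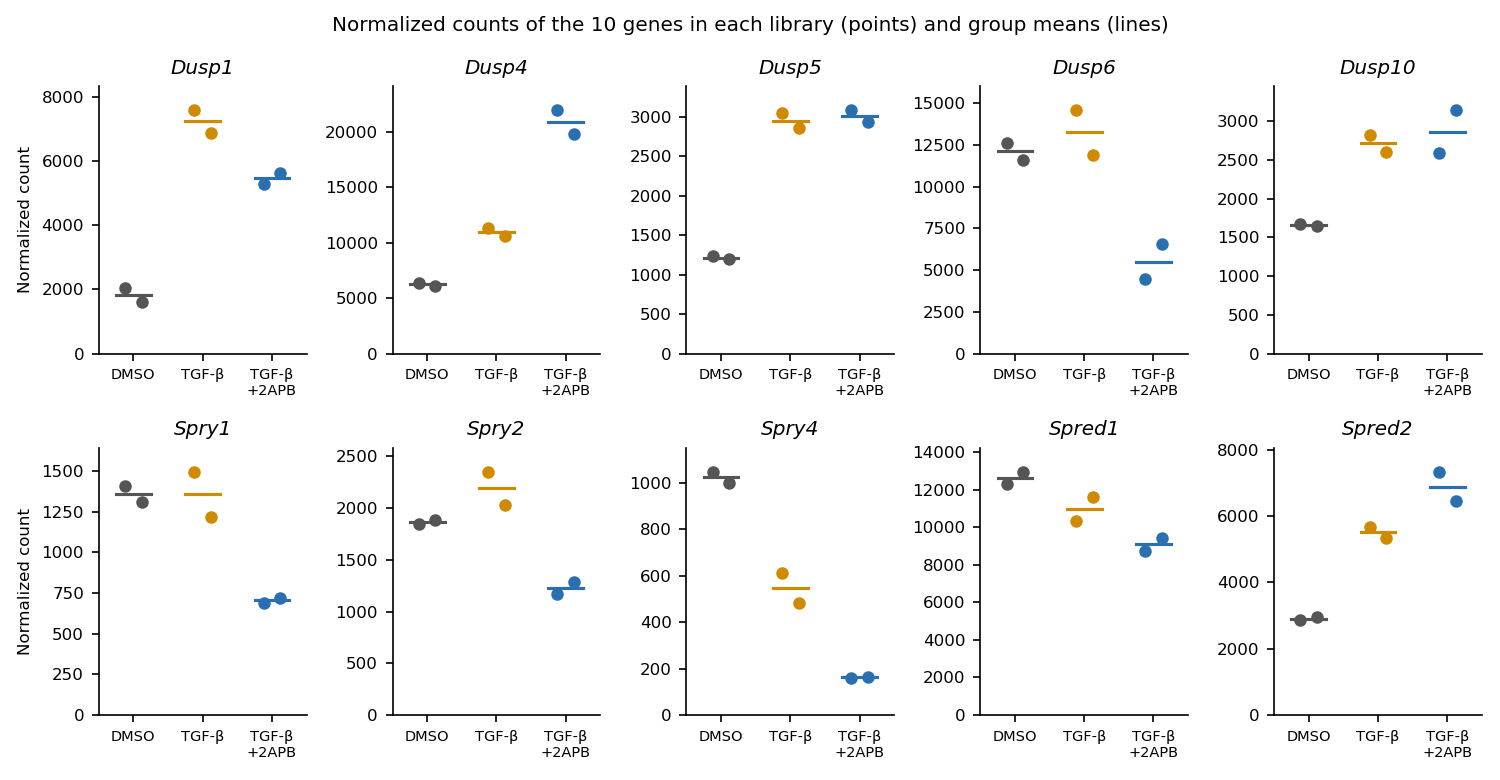
Normalized counts (vertical axis, starting at 0 in each panel) of the 10 genes in the DMSO, TGF-β and TGF-β+2APB libraries; each point is a library and each line the mean of a group. Dusp1, Dusp4, Dusp5, Dusp10 and Spred2 are higher in all TGF-β and TGF-β+2APB libraries than in DMSO, while Dusp6, the 3 Sproutys and Spred1 are at their lowest with TGF-β+2APB.

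Dusp1 encodes MKP-1, a nuclear phosphatase of JNK, p38 and ERK that is known as an immediate early gene. It lies on chromosome 17 from 26505591 to 26508472 (RefSeq, GRCm38.p6), and 11 of its exonic bases in GENCODE M21 are shared with Ergic1. The normalized count of Dusp1 was 2052 and 1599 in the DMSO replicates, 7593 and 6898 under TGF-β, and 5308 and 5625 under the combination. The groups did not overlap, and the highest values were those with TGF-β alone. Dusp1 rose 3.97-fold with TGF-β (1.99 ± 0.14 in log2, edgeR FDR 0.000279) and was 2.99-fold higher than DMSO with TGF-β+2APB (1.58 ± 0.14 in log2, edgeR FDR 0.000346). The step from TGF-β to TGF-β+2APB had a log2 fold change of -0.41 ± 0.13 (edgeR FDR 0.0922) and was not called, while DESeq2 without its fold change prior called it (FDR 0.0397).

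Dusp5 encodes a nuclear phosphatase selective for ERK and lies on chromosome 19 from 53529145 to 53541809. Its normalized count was 1232 and 1198 in DMSO, 3045 and 2866 under TGF-β, and 3085 and 2938 under the combination. Dusp5 was thus at one level in DMSO and at a higher one in both treated groups, whose libraries overlapped. It rose 2.43-fold with TGF-β (1.28 ± 0.08 in log2, edgeR FDR 0.000165) and was 2.48-fold higher than DMSO with TGF-β+2APB (1.31 ± 0.08 in log2, edgeR FDR 9.27e-05). On addition of 2APB the log2 fold change of Dusp5 was 0.03 ± 0.07 (edgeR FDR 0.826). An annotated antisense gene, AC137853.2, shares 547 exonic bases with Dusp5 in GENCODE M21, and without a stated strand setting their reads cannot be told apart.

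The sequences upstream of Dusp1 and Dusp5 are shown because both genes rose with TGF-β and because their windows held matches to response elements of kinase-regulated factors. In each window of 300 bases around a RefSeq start site (250 before and 50 after), both strands were searched for the cyclic AMP response element TGACGTCA, the CArG box of serum response factor, the AP-1 site TGANTCA, the ETS core CCGGAA, the E-boxes CAGGTG and CACGTG, the NFAT core TGGAAA and the SMAD palindrome GTCTAGAC. Of the 10 genes, 8 had a window in the table used, Dusp4 and Spry4 being the others. The stretch of Dusp1, 50 bases long and starting 150 bases upstream of the start site (chr17:26508573-26508622, minus strand, GRCm38.p6), holds TGACGTCA and CACGTG, in capitals. The stretch of Dusp5, from 100 to 41 bases upstream (chr19:53529045-53529104, plus strand), holds 2 adjoining CArG boxes, in capitals.
Dusp1: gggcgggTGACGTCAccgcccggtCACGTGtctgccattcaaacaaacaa
Dusp5: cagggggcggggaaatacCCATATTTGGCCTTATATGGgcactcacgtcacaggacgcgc
Among 32544 distinct windows of all genes, 1.8% held TGACGTCA, 1.64% a CArG box and 7.17% CACGTG. No other of the 8 windows held any of these 3 elements. TGANTCA (7.79% of all windows), CAGGTG (20.3%), TGGAAA (21.5%) and GTCTAGAC (0.215%) were in none of the 8, and CCGGAA (15.0%) was in that of Spry2 only, downstream of the start site. These are matches of letters and were not tested for binding.

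Dusp4 encodes MKP-2, a nuclear phosphatase of ERK and JNK, on chromosome 8 from 34807610 to 34819894. Its normalized count was 6386 and 6111 in DMSO, 11339 and 10619 under TGF-β, and 21938 and 19773 under the combination. Each group lay wholly above the one before it. Dusp4 rose 1.76-fold with TGF-β (0.81 ± 0.08 in log2, edgeR FDR 0.00111) and a further 1.90-fold on addition of 2APB (0.93 ± 0.08 in log2, edgeR FDR 0.00417). Against DMSO it was 3.34-fold higher with TGF-β+2APB (1.74 ± 0.09 in log2, edgeR FDR 6.43e-05). Dusp4 was the only member of the list called higher on addition of 2APB. Over the alternative settings its log2 fold change in that step stayed between 0.82 and 0.995, with the call kept in each of 17.

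Dusp10 encodes MKP-5, which acts on JNK and p38. Its normalized count was 1673 and 1642 in DMSO, 2824 and 2604 under TGF-β, and 2586 and 3139 under the combination. The treated groups overlapped each other and lay above DMSO. Dusp10 rose 1.64-fold with TGF-β (0.71 ± 0.11 in log2, edgeR FDR 0.00467) and was 1.73-fold higher than DMSO with TGF-β+2APB (0.79 ± 0.11 in log2, edgeR FDR 0.00223). The step between the treatments, a log2 fold change of 0.08 ± 0.11 (edgeR FDR 0.669), was not called.

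Dusp6 encodes MKP-3, the cytoplasmic ERK phosphatase that is widely used as a readout of ERK activity. It lies on chromosome 10 from 99263231 to 99267489. Its normalized count was 12626 and 11615 in DMSO, 14580.2 and 11928 under TGF-β, and 4449 and 6562 under the combination. The DMSO and TGF-β libraries overlapped, and both TGF-β+2APB libraries lay below all others. With TGF-β alone the log2 fold change of Dusp6 was 0.13 ± 0.20 (edgeR FDR 0.639). On addition of 2APB it fell 2.41-fold (-1.27 ± 0.20 in log2, edgeR FDR 0.0144), and it was 2.20-fold lower than in DMSO (-1.14 ± 0.20 in log2, edgeR FDR 0.00532). Its TGF-β+2APB replicates differed by 0.56 on the log2 scale, more than those of the other 9 genes in that group, against an SD of 0.78 for this difference over all tested genes. Omitting any single library left the step on addition of 2APB between -1.58 and -1.05 on the log2 scale and called each time, with an edgeR FDR of at most 0.0487.

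**Figure D2:**
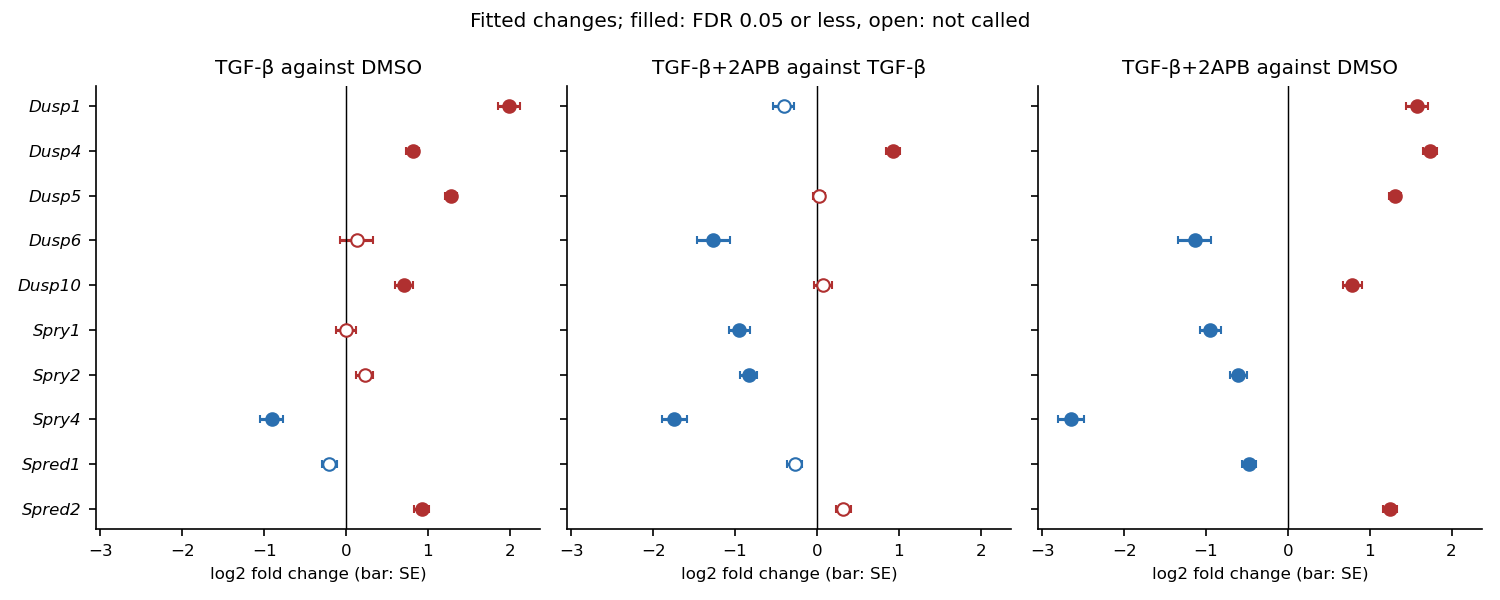
Fitted log2 fold change (horizontal axis) of each of the 10 genes with its SE (bars) in the 3 comparisons; filled points passed an edgeR FDR of 0.05, open points did not, and red and blue mark higher and lower. In the middle panel Dusp6, Spry1, Spry2 and Spry4 lie to the left and Dusp4 to the right, while in the right panel all 10 points are filled.

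The 3 Sproutys, adaptor-type inhibitors that are phosphorylated after receptor activation and block signalling between the receptor and Raf, were all called lower when 2APB was added. Spry4 had the largest fitted change of the 10 genes both on addition of 2APB and for the combination against DMSO. Its normalized count was 1048 and 999.95 in DMSO, 610 and 481 under TGF-β, and 160.4 and 166 under the combination. Each group lay wholly below the one before it. Spry4 fell 1.88-fold with TGF-β (-0.91 ± 0.14 in log2, edgeR FDR 0.00478), 3.34-fold further on addition of 2APB (-1.74 ± 0.15 in log2, edgeR FDR 0.00386), and was 6.28-fold lower than in DMSO with TGF-β+2APB (-2.65 ± 0.15 in log2, edgeR FDR 9.67e-05). Its change on addition of 2APB lay at percentile 2.17 of the 13353 log2 fold changes, counted from the lowest. These are also the smallest counts in the list, with deposited values of 162 and 168 in the TGF-β+2APB libraries.

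Spry2, on chromosome 14 from 105891947 to 105896819, and Spry1, on chromosome 3 from 37639947 to 37644599, were not called with TGF-β alone. The normalized count of Spry2 was 1852 and 1886 in DMSO, 2351 and 2032 under TGF-β, and 1168 and 1288 under the combination. Its TGF-β libraries lay above DMSO (0.23 ± 0.10 in log2, edgeR FDR 0.127) without passing the threshold, except when replicate 2 of TGF-β was left out (0.33 in log2, edgeR FDR 0.0179), and its TGF-β+2APB libraries lay below both other groups. Spry2 fell 1.78-fold on addition of 2APB (-0.84 ± 0.10 in log2, edgeR FDR 0.00751) and was 1.52-fold lower than in DMSO (-0.61 ± 0.10 in log2, edgeR FDR 0.00445). The normalized count of Spry1 was 1405 and 1306 in DMSO, 1494 and 1218 under TGF-β, and 689 and 718 under the combination. The TGF-β values of Spry1 enclosed those of DMSO, and the TGF-β+2APB values were lower than all of them. Spry1 had a log2 fold change of 0.00070 with TGF-β (SE 0.12, edgeR FDR 0.997). It fell 1.93-fold on addition of 2APB (-0.95 ± 0.12 in log2, edgeR FDR 0.00869) and was likewise 1.93-fold lower than in DMSO (-0.95 ± 0.12 in log2, edgeR FDR 0.00165). The step on addition of 2APB missed the threshold without replicate 1 of TGF-β+2APB, at a log2 fold change of -0.95 and an edgeR FDR of 0.0503. Spry1 shares 710 exonic bases with Gm42922, annotated on the opposite strand, and without a stated strand setting reads of that stretch cannot be assigned to either.

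The 100 bases upstream of Dusp6 (chr10:99263131-99263230, plus strand) and of Spry2 (chr14:105896820-105896919, minus strand) are shown as the counterparts of the stretches above, since both genes fell on addition of 2APB. Neither holds a match to the motifs searched, so no letter is in capitals. The CCGGAA of the Spry2 window lies outside the bases shown. No motif was found in the windows of Dusp10 and Spred2, which rose with TGF-β. A link between these motifs and the direction of change was not tested.
Dusp6: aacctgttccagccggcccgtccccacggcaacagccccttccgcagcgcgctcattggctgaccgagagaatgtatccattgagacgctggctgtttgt
Spry2: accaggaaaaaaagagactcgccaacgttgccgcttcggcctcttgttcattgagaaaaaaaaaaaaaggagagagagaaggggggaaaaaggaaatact

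The Spreds, relatives of the Sproutys that bring the Ras inactivator neurofibromin to the membrane, were called in opposite directions for the combination against DMSO. Spred2, on chromosome 11 from 19924442 to 20024026, had normalized counts of 2856 and 2944 in DMSO, 5668 and 5356 under TGF-β, and 7339 and 6452 under the combination. It rose 1.90-fold with TGF-β (0.93 ± 0.09 in log2, edgeR FDR 0.000872) and was 2.38-fold higher than DMSO with TGF-β+2APB (1.25 ± 0.09 in log2, edgeR FDR 0.000192). Its step between the treatments, 0.32 on the log2 scale (SE 0.09, edgeR FDR 0.0597), was called by DESeq2 without its prior (FDR 0.0131) and not by edgeR. Spred1, on chromosome 2 from 117121071 to 117182279, had normalized counts of 12318 and 12956 in DMSO, 10351 and 11619 under TGF-β, and 8741 and 9453 under the combination. The groups of Spred1 did not overlap and declined in that order, but neither single step was called, with log2 fold changes of -0.20 ± 0.09 (edgeR FDR 0.126) and -0.27 ± 0.09 (edgeR FDR 0.0962). The former was called without replicate 2 of TGF-β (-0.29 in log2, edgeR FDR 0.0228) and the latter without replicate 1 of TGF-β (-0.35 in log2, edgeR FDR 0.0216). Against DMSO it was 1.39-fold lower with TGF-β+2APB (-0.47 ± 0.09 in log2, edgeR FDR 0.00672). That call was lost without replicate 2 of DMSO (log2 -0.44, edgeR FDR 0.0655) and without replicate 1 of TGF-β+2APB (log2 -0.42, edgeR FDR 0.0535).

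Levels of different genes were compared as normalized counts per kilobase of exon, with exons taken from GENCODE M21. In DMSO, Dusp6 stood highest of the 10 genes at 3870.0 ± 228 (SD, n = 2), followed by Dusp4 at 2281 ± 70.9 (SD, n = 2) and Spred1 at 1863 ± 66.5 (SD, n = 2). Spry2, Spred2, Dusp1, Dusp10, Dusp5, Spry1 and Spry4 came next in that order, from 895 ± 11.8 (SD, n = 2) for Spry2 down to 215 ± 7.09 (SD, n = 2) for Spry4. Among neighbours in this order, the libraries of Spred2 and Dusp1 and those of Dusp1 and Dusp10 overlapped. Dusp1, at 620 and 483, also overlapped with Dusp5 and Spry1, so its rank in DMSO is not settled. With TGF-β the levels of Dusp6, 4232 ± 599 (SD, n = 2), and Dusp4, 4007 ± 186 (SD, n = 2), overlapped, and Dusp1 had moved from rank 6 to rank 3 at 2188 ± 148 (SD, n = 2). With TGF-β+2APB, Dusp4 stood alone at the top at 7612 ± 559 (SD, n = 2), followed by Dusp6 at 1758 ± 477 (SD, n = 2) and Dusp1 at 1651 ± 67.7 (SD, n = 2), whose libraries overlapped. Spry4 stayed last in each group and reached 34.3 ± 0.798 (SD, n = 2) per kilobase with TGF-β+2APB.

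Ratios within a library do not depend on how the libraries were scaled. The ratio of Dusp4 to Dusp6 per kilobase was 0.578 and 0.601 in DMSO, 0.889 and 1.02 under TGF-β, and 5.64 and 3.44 under the combination. The Dusp4 transcript was therefore below that of Dusp6 in both DMSO libraries and above it in both TGF-β+2APB libraries. The ratio of Spred2 to Spred1 per kilobase was 0.341 and 0.334 in DMSO, 0.804 and 0.677 under TGF-β, and 1.23 and 1.002 under the combination. The ratio of Spry4 to Spry2 went from 0.248 and 0.233 in DMSO to 0.114 and 0.104 with TGF-β and to 0.0603 and 0.0565 with TGF-β+2APB. Summed per kilobase, the 3 Sproutys gave 1591 and 1563 in DMSO, 1769 and 1494 under TGF-β, and 831 and 899 under the combination. The 5 phosphatases together gave 8030.0 and 7446 in DMSO, 13246 and 11782 under TGF-β, and 13127 and 13230.4 under the combination. The phosphatase sum thus overlapped between the treated groups while its makeup differed.

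**Figure D3:**
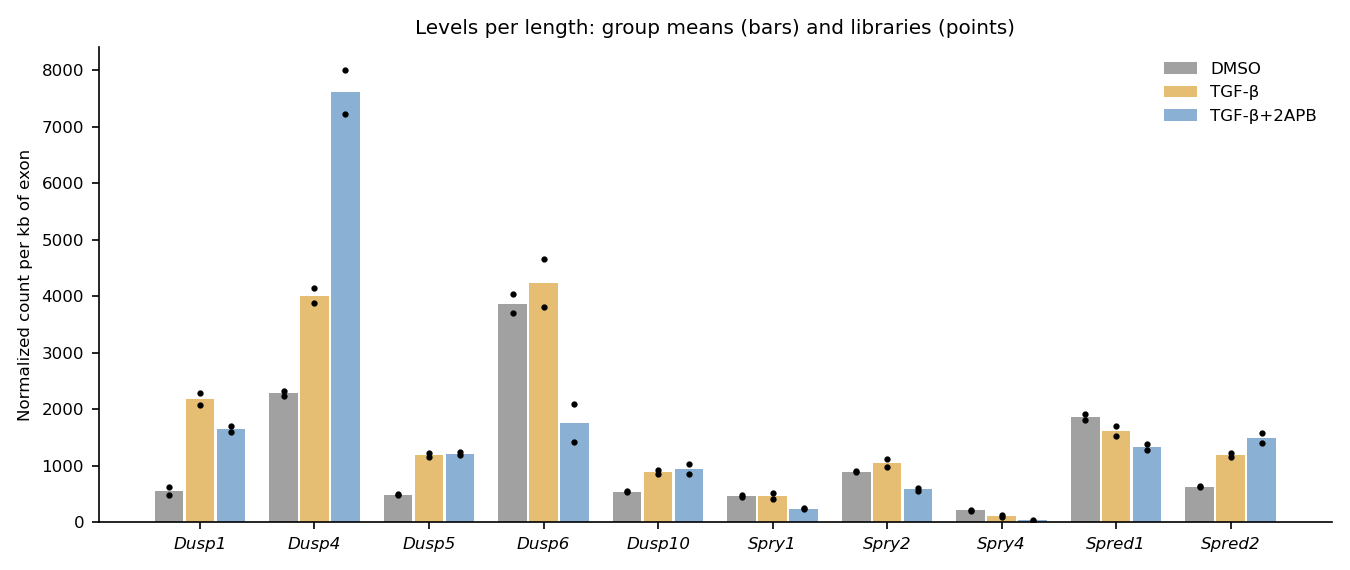
Normalized count per kb of exon (vertical axis, from 0) of the 10 genes, with the mean of each group as a bar and each library as a point. Dusp6 is the tallest in DMSO at 3870.0 and Dusp4 the tallest with TGF-β+2APB at 7612, and Spry4 is the lowest in each group.

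Other genes of the MAP kinase pathways were examined in 4 lists by role. Of 15 further feedback regulators, 13 were tested. With TGF-β, 6 were called higher and 2 lower, on addition of 2APB 2 higher and 2 lower, and 6 higher and 4 lower in the third comparison. The share called was 61.5%, 30.8% and 76.9%, beside 41.5%, 17.5% and 52.8% of all tested genes. The median log2 fold change of this list was 0.24, -0.07 and 0.29 in these comparisons. Dusp2, an inducible nuclear phosphatase, had the largest rise in each. Its normalized count was 11.8 and 6.20 in DMSO, 72.1 and 43.6 under TGF-β, and 408 and 353 under the combination, which is 6.34-fold higher with TGF-β (2.66 ± 0.42 in log2, edgeR FDR 0.00473) and 6.56-fold higher again on addition of 2APB (2.71 ± 0.37 in log2, edgeR FDR 0.00964). Dusp7, an ERK phosphatase named here after its values were seen, had 1718 and 1864 in DMSO, 3428 and 3055 under TGF-β, and 6276 and 5576 under the combination. Like Dusp4 and Dusp2 it was called higher in both steps, by 0.86 ± 0.10 (edgeR FDR 0.00169) and 0.87 ± 0.10 (edgeR FDR 0.00652) on the log2 scale. The other phosphatases tested in this list did not share this. Dusp14 was called higher with TGF-β (1.58 ± 0.16 in log2, edgeR FDR 0.00103) but not on addition of 2APB (0.02 ± 0.15, edgeR FDR 0.930). Dusp16 was called lower with TGF-β (-0.65 ± 0.08 in log2, edgeR FDR 0.00167) and not on addition of 2APB. Dusp8 was called in neither step. Spred3, the remaining Spred, which shares 202 exonic bases with Ggn, had 1372 and 1489.6 in DMSO, 2959 and 2955 under TGF-β, and 1720.4 and 1788 under the combination. It rose by 1.05 with TGF-β (SE 0.08, edgeR FDR 0.000357) and fell by 0.75 on the log2 scale on addition of 2APB (SE 0.08, edgeR FDR 0.00506), the largest fall of the list in that step. Errfi1, an inhibitor of the EGF receptor, had the largest fall in both comparisons with DMSO, with log2 fold changes of -0.74 ± 0.09 (edgeR FDR 0.00174) and -0.81 ± 0.09 (edgeR FDR 0.000797).

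The list of ERK-responsive genes held 25 genes, of which 24 were tested. It gave 14 higher and 4 lower with TGF-β, 4 higher and 4 lower on addition of 2APB, and 10 higher and 7 lower in the third comparison, with medians of 0.54, -0.02 and 0.17 on the log2 scale. The share called was 75%, 33.3% and 70.8%, beside 41.5%, 17.5% and 52.8% of all tested genes. Etv4 and Etv5 encode ETS factors whose transcription follows receptor tyrosine kinase signalling together with that of Dusp6 and the Sproutys in many tissues. The normalized count of Etv4 was 865 and 983 in DMSO, 2918 and 2395 under TGF-β, and 729 and 965 under the combination. Etv4 rose by 1.52 with TGF-β (SE 0.18, edgeR FDR 0.00158) and fell by 1.65 on the log2 scale on addition of 2APB (SE 0.18, edgeR FDR 0.00556), the largest fall of this list in that step. Etv5, named after its values were seen, had 1415 and 1568 in DMSO, 3625 and 2665 under TGF-β, and 1505 and 1651 under the combination. Its log2 fold changes were 1.08 with TGF-β (SE 0.16, edgeR FDR 0.00393) and -0.99 on addition of 2APB (SE 0.16, edgeR FDR 0.0147), the latter call being lost without replicate 1 (edgeR FDR 0.0782) or replicate 2 (0.0501) of TGF-β+2APB. The ETS genes were thus called higher with TGF-β, where Dusp6, Spry1 and Spry2 were not called. Spry4 was called lower in that step (-0.91 ± 0.14 in log2, edgeR FDR 0.00478). All of these genes were called lower on addition of 2APB. Differences among these genes in the first step were not tested. The early-response gene Fos had the largest fall against DMSO, with TGF-β from 2673 and 1667 in DMSO to 183 and 74.7 (-4.07 ± 0.50 in log2, edgeR FDR 0.00196, and -4.85 without replicate 1 of TGF-β) and to 67.3 and 105 under the combination (-4.66 ± 0.52 in log2, edgeR FDR 0.00088). Its relative Fosb had the largest rise on addition of 2APB, from 253 and 284 to 1198 and 1109 (2.10 ± 0.21 in log2, edgeR FDR 0.00482). Lif, which encodes the cytokine leukemia inhibitory factor, had the largest rise against DMSO, by 2.41 ± 0.13 under TGF-β (edgeR FDR 0.000134) and by 3.60 ± 0.14 under the combination (edgeR FDR 3.14e-05) in log2.

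**Figure D4:**
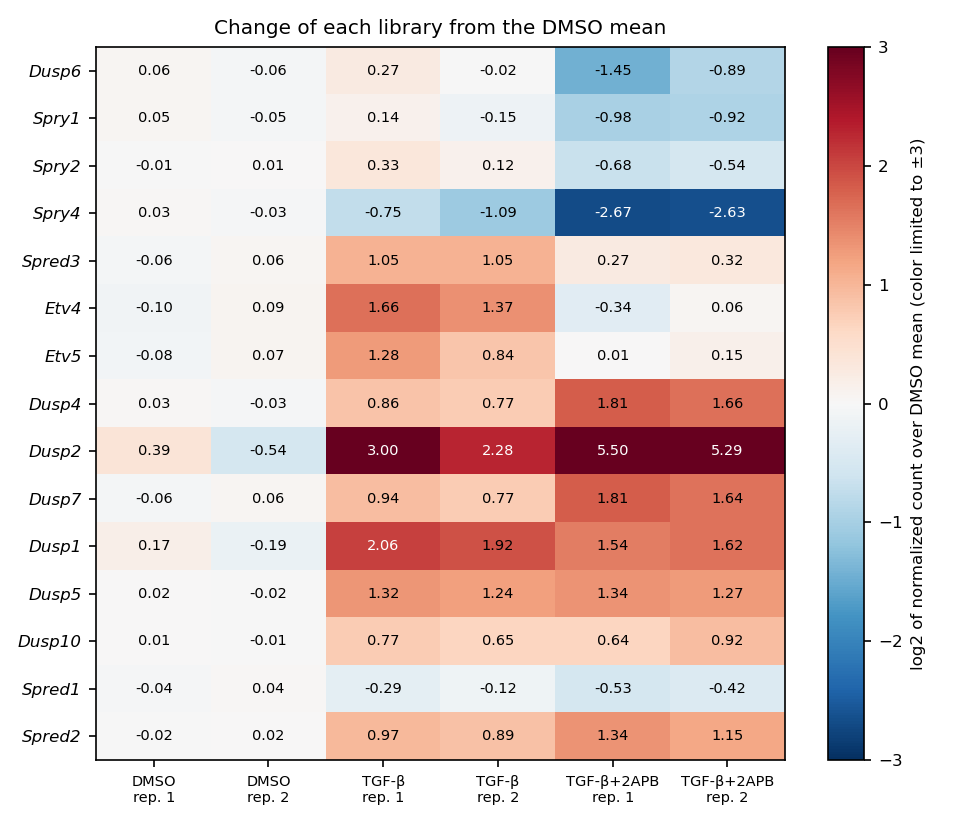
Log2 of the normalized count over the DMSO mean (color and printed value) for the 10 genes and for Spred3, Etv4, Etv5, Dusp2 and Dusp7 (rows) in each of the 6 libraries (columns). Dusp6, Spry1, Spry2 and Spry4 are at or below -0.54 in both TGF-β+2APB libraries, while Dusp4, Dusp2 and Dusp7 are higher there than in either TGF-β library.

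Of 28 genes of the cascade itself, the kinases and adaptors between receptor and nucleus, all were tested. With TGF-β 8 were called higher and 1 lower, and on addition of 2APB 2 higher and 3 lower. In the third comparison 9 were called higher and 4 lower. The medians were 0.09, -0.04 and 0.22 on the log2 scale. The share called was 32.1%, 17.9% and 46.4%, beside 41.5%, 17.5% and 52.8% of all tested genes. Gab2, an adaptor that recruits the phosphatase SHP2 and PI3 kinase, had the largest rise against DMSO, with log2 fold changes of 1.32 ± 0.08 under TGF-β (edgeR FDR 0.000197) and 1.67 ± 0.08 under the combination (edgeR FDR 6.21e-05). Rps6ka1, which encodes the ERK-activated kinase RSK1, had the largest fall in the same comparisons, -1.28 ± 0.11 (edgeR FDR 0.000627) and -1.34 ± 0.11 (edgeR FDR 0.000318). Between the treatments the extremes were Map2k2 (MEK2), at 0.46 ± 0.09 (edgeR FDR 0.0248), and the scaffold Ksr1, at -0.54 ± 0.11 (edgeR FDR 0.0255). Each of these calls was lost in 7 of 17 alternative settings, among them leaving out either replicate of DMSO or of TGF-β+2APB. In those fits the log2 fold change was 0.44 to 0.46 for Map2k2 and -0.64 to -0.48 for Ksr1.

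Of 24 genes of the JNK and p38 branches, 22 were tested. With TGF-β 4 were called higher and 6 lower, and on addition of 2APB 4 higher and 3 lower. In the third comparison 4 were called higher and 6 lower. The medians were 0.02, 0.04 and -0.0023 on the log2 scale. The share called was 45.5%, 31.8% and 45.5%, beside 41.5%, 17.5% and 52.8% of all tested genes. Gadd45g, a stress-induced activator of the kinase MTK1, had the largest rise against DMSO, with log2 fold changes of 2.74 ± 0.09 under TGF-β (edgeR FDR 3.91e-05) and 3.92 ± 0.09 under the combination (edgeR FDR 1.20e-05). Its relative Gadd45a had the largest rise between the treatments, at 1.78 ± 0.12 (edgeR FDR 0.00307). Mapk8ip1, a JNK scaffold, had the largest fall against DMSO, at -1.79 ± 0.27 under TGF-β (edgeR FDR 0.00391) and -2.30 ± 0.27 under the combination (edgeR FDR 0.00112). Map3k5, the stress kinase ASK1, had the largest fall between the treatments, at -1.02 ± 0.15 (edgeR FDR 0.0123, and 0.0520 without replicate 1 of TGF-β+2APB). Together the 4 lists held 87 tested genes, of which 45, 24 and 50 were called in the 3 comparisons. These are 51.7%, 27.6% and 57.5%, beside 41.5%, 17.5% and 52.8% of all tested genes. With a library left out, the share of all tested genes called moved in the same direction as the counts that follow. The 24 called on addition of 2APB became 13 and 14 without a DMSO replicate, 42 without replicate 2 of TGF-β, and 12 and 14 without a TGF-β+2APB replicate. The 50 called for the combination against DMSO became 32 and 33 without a DMSO replicate.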

How the data were processed

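RNA of NMuMG cells was selected with oligo-dT and sequenced as single-end reads of 50 bp in 6 libraries. Per the labels and the paper's methods, the authors used FastQC 0.11.2, TopHat 2.0.13 and featureCounts. The deposited values were used as counts per gene, although all are even. The build is named as mm10 in the submitters' processing notes and hg19 in the methods, with mouse symbols in the table. The strand setting and the treatment of multiply aligned reads are not given in the sources used here. The names of 2 columns were matched to samples despite misspelt group names. A spreadsheet had turned 25 symbols into dates.

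For the tests, edgeR 4.0.16 was run in R 4.3.3. TMM scaling, a mean of at least 20 normalized counts and 1 quasi-likelihood model of the 3 groups without covariates were used, with an FDR over 13353 genes. Each SE was obtained from the log2 fold change and the F statistic. Alternatives were DESeq2 1.42.0 with and without its prior, RLE or library size scaling, no filter, at least 10 counts in every library, a replicate block, only the 4 libraries compared, an FDR of 0.01 and each library left out. Halved counts, tried because every deposited value was even, and an exchanged block were added after the data had been seen. The fits were first tested on simulated data in which few genes changed, equally up and down and in the TGF-β group only. That setting cannot show how the fits behave when a large share of genes changes, as here. Coordinates and promoter sequences came from RefSeq (GRCm38.p6) and exon lengths from GENCODE M21, both of the build mm10. Sequences and figures were handled in Python 3.11.15 (pandas 2.3.3, matplotlib 3.10.9). The members and lists were chosen with earlier results of these data known. Named list genes are the largest called rise and fall per list and comparison whose replicate 1 and replicate 2 differences agree in sign. That sign rule matches libraries by replicate number, which the main fit does not. Each group had 2 replicates, which limits the precision. One marker gene of the lists is not reported here.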

Additional observations from a re-analysis of the deposited data

How the results depend on the processing

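The numbers of the 10 genes called stayed within 6 to 8 for TGF-β against DMSO, 4 to 7 for TGF-β+2APB against TGF-β and 9 to 10 for TGF-β+2APB against DMSO over 17 alternatives. With halved counts they were 6, 5 and 10 in that order, as in the main fit. For the 87 other pathway genes, the 24 called on addition of 2APB became 14 when the third group was left out of the fit and 10 at an FDR of 0.01, and ranged from 12 to 42 with a library left out. The 50 called against DMSO with TGF-β+2APB ranged from 32 to 71, and the 45 with TGF-β from 31 to 62, with a library left out. Over all tested genes, the share called on addition of 2APB was 17.5% in the main fit. It was 25.3% with DESeq2 without its prior, 6.54% with the third group left out and 4.5% at an FDR of 0.01. With a library left out, the shares over all tested genes moved in each comparison as the counts of the 87 genes did. The cause was not tested. The labels do not say that a replicate number marks a shared batch. The replicate differences of the groups were compared over 13353 genes, which are not independent. For DMSO the Pearson r was 0.148 with TGF-β and -0.458 with the combination. The r of the treatments was -0.255, so the numbers were not taken as pairs in the main fit. The replicate block called 6, 5 and 10 of the 10 genes and 42, 17 and 49 of the other pathway genes, and took the calls of Map2k2 (FDR 0.0508) and Ksr1 (FDR 0.0660) on addition of 2APB. With the TGF-β+2APB numbers exchanged it called 6, 6 and 10, and 50, 28 and 51.

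Signs changed only for values that were not called. With TGF-β against DMSO, Spry1 was at -0.00040 and -0.00039 by DESeq2 without and with its prior, -0.00051 with RLE and -0.030 with library size scaling, -0.0030 with the replicate block and -0.0041 with the exchanged block, and between -0.15 and 0.14 with a library left out. In the same comparison Dusp6 ranged from -0.017 to 0.27 with a library left out. On addition of 2APB, Dusp5 was at -0.0074 with library size scaling and between -0.039 and 0.073, and Dusp10 between -0.074 and 0.18, with a library left out. Etv4 in TGF-β+2APB against DMSO ranged from -0.32 to 0.056. At an FDR of 0.01 Dusp6 lost its call on addition of 2APB, at an unchanged log2 fold change.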
